A study of Arabidopsis thaliana with 148 samples.

Results

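One hour after a short heat stress had ended, a set of Arabidopsis genes stood well above the controls although they had not done so, by read share, at the moment the heat ended. This set of 100 genes was drawn from 38194 in the count table. The members were chosen by their levels in total mRNA of the recovery experiment at 0 h and 1 h. After removal of 296 organelle genes, counts were scaled by column sum to CPM, a share of each library's reads, group means were taken, 1 CPM was added, and genes were kept with a ratio of heat to control below 1.5 at 0 h and a mean heat level of at least 10 CPM at 1 h. That left 12037 eligible genes, of which the 100 with the highest ratio at 1 h are described here.

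The seedlings carried p35S:HF-RPL18, a tagged ribosomal protein under the viral 35S promoter, in every group, controls included. Messages bound to tagged ribosomes were purified by translating ribosome affinity purification (TRAP) and sequenced beside total mRNA, so TRAP values reflect the cells in which that promoter is active. Growth at 22 °C took place under 12 h of light alternating with 12 h of darkness during the first 10 days, with a change to constant light on day 11. On day 13 the heat groups of the recovery experiment spent 1 h at 37 °C, ending at ZT54 (hours of zeitgeber time), and were collected at 0, 1, 3 and 6 h of return to 22 °C, while the control groups stayed at 22 °C. In the time course, separate heat groups received 1 h at 37 °C ending at 8 times from ZT48 to ZT69 and were collected at once, beside controls kept at 22 °C. Groups held 3 libraries each, except the total mRNA controls at ZT57 and the TRAP controls at ZT60 of the time course, which held 2. The labels do not state whether libraries of a group came from separate sets of seedlings. The p-values then cover only the variation among these libraries, which may be technical.

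Plants given a sudden rise in temperature turn transcription and translation towards chaperones, and many growth and metabolic messages lose their share of the ribosomes. When the temperature drops again, chaperone messages decay and other messages return. Among the processes that plants adjust on such a time scale are sulfate assimilation, which feeds cysteine and glutathione synthesis, the making of ribosomes in the nucleolus, and protective proteins of the late embryogenesis abundant and dehydrin kind.

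Libraries of the recovery experiment held 3080248 to 8512961 counts for total mRNA and 4193134 to 8745785 for TRAP. A reference list of 7 heat-induced genes, chaperones and regulators such as HSP101 and HSFA2, summed to between 24110 and 26367 CPM in total mRNA of heat libraries at 0 h, 3583 to 3863 CPM at 1 h, 567 to 784 CPM at 3 h and 318 to 332 CPM at 6 h. Control replicate 2 at 6 h stood apart: the list summed to 740 CPM in its total mRNA and 869 CPM in its TRAP library, against 76.3 and 87.1 CPM and 68.7 and 79.5 CPM in the other controls. It was left out of the main fits, and results at 6 h are given with and without it. TRAP control replicate 1 at 3 h correlated less with the other 2 controls of its group. In the time course the reference list was raised in several controls: in replicate 2 at ZT54, with 1555 CPM in total mRNA and 507 CPM in TRAP, in replicate 1 at ZT48, with 321 and 361 CPM, and in the TRAP libraries of replicate 2 at ZT57 and ZT69, with 371 and 567 CPM.

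The ratio of heat to control in total mRNA at 1 h, which chose the genes, ran from 2.19 to 6.44 with a median of 2.49, against a median of 0.990 over the eligible genes. The last genes inside were NAC003 at 2.21, AT1G27470 at 2.2 and AT4G38092 at 2.19. Just outside were MES5, SAG21 and ALMT1, each at 2.18. At 0 h the median ratio of the members was 0.688 and that of the eligible genes 0.672, and 76 members had a ratio below 1. These values chose the set and are given as a description.

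The limit at 0 h depends on the scaling. By column sum, the eligible genes had a median log2 ratio of -0.574 at 0 h. A gene at the median of the eligible genes therefore sits below a ratio of 1 on that scale. With the TMM scaling of edgeR, which sets the bulk of genes near 0, the median over all genes was -0.04, and 27 of 100 members were higher and 24 lower at 0 h in total mRNA, beside 23.5% higher and 23.6% lower among the 20984 genes tested. By this scale a part of the set was already higher when the heat ended, so the set is described here by its rule and not as genes that responded only after heat. Values in CPM below are by column sum, and log2 folds are from edgeR with TMM.

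Of the members, 91 were protein-coding and 9 were noncoding in the RefSeq annotation of TAIR10.1, among them 3 snoRNA genes. There were 30 members that overlapped another annotated gene. The counts of AT1G06000 and AT1G06002, on opposite strands, were equal in 46 of 48 recovery libraries, and those of AT1G20690 and AT1G20691 in 43 of 48, so reads of such partners cannot be told apart. APR2 overlaps the members AT1G62170 and AT1G08477, and the counts were equal in 0 of 48 libraries. AT1G08477 lies wholly within the span of APR2 on the opposite strand. How many of its reads are shared with APR2 cannot be told from the counts. By function, 58 members were placed after their values were seen into 8 classes, and 42 in none.

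The largest named class was nucleolar, with 16 members that act in making ribosomes, followed by sulfur with 9. Stretches of 250 bases before the annotated gene start are shown for one or more members of the sulfur, nucleolar and cold classes as examples of the letters counted, and were searched on both strands in 91 protein-coding members and 27443 protein-coding genes. TGGGCC or TGGGCT, known as site II and common before genes of ribosome and organelle proteins, was in 27 members, or 29.7%, and in 19.2% of all genes. Among the classes it was in 7 of 14 nucleolar, 5 of 6 organelle gene expression and 3 of 6 late embryogenesis and cold members. CCGAC, the core to which cold and drought factors bind, was in 18.7% of members and 12.0% of all, and in 4 of 6 late embryogenesis and cold members. GAGAC, the core of a sulfur response element, was in 27.5% and 25.8%. It was in 3 of 9 sulfur members and in 6 of 14 nucleolar members, so it did not mark the sulfur class. The heat shock element, searched in a strict form of 3 alternating units, was in 0 of 91 members and 0.386% of all genes. The 27443 genes were taken whatever their level, whereas members had a mean heat level of at least 10 CPM at 1 h. Shares among the eligible genes were not counted, so these differences are not read as a trait of the set. None of these matches shows binding.

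The windows read 5′ to 3′ on the strand of the gene, from TAIR10.1, with the matched letters in capitals. ATSDI1 lies on the minus strand and its window is chr5:19807854-19808103, with GAGAC read from the other strand. The window of AT3G10530 is chr3:3285582-3285831 and that of RID2 is chr5:23204127-23204376, both on the plus strand with site II read from the other strand. The window of LTI78, on the plus strand, is chr5:21240467-21240716 and holds 3 copies of CCGAC.
ATSDI1: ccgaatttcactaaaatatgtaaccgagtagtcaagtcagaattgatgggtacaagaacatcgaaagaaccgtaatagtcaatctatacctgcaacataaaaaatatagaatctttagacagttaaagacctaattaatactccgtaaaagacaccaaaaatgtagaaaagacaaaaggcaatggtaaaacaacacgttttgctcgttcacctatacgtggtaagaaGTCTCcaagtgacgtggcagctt
AT3G10530: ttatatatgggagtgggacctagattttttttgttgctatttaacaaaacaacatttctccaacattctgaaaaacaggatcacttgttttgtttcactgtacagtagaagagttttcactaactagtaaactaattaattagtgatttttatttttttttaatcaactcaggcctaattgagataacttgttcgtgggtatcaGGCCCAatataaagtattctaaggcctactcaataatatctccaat
RID2: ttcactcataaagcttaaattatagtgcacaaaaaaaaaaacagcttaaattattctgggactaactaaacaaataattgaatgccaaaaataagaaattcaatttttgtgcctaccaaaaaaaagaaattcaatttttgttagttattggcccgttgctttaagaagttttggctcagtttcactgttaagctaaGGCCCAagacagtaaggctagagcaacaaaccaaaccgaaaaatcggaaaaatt
LTI78: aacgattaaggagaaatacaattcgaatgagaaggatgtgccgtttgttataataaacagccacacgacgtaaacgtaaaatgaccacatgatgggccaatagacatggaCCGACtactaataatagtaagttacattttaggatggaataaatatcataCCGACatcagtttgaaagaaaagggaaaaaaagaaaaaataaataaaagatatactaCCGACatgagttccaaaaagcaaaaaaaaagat

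The sulfur class held ATSDI1, a sulfur deficiency induced protein that curbs glucosinolate synthesis, AT5G26220, a glutathione-degrading ChaC-like protein, and LSU3, a small protein named for its response to low sulfur. It also held APR2 and APR3, reductases of activated sulfate, APS3, an ATP sulfurylase, SERAT3;2, a serine acetyltransferase on the way to cysteine, SHM7 and the beta-glucosidase BGLU28. In total mRNA at 1 h ATSDI1 had 109, 122 and 154 CPM in heat libraries, against 18.4, 16.9 and 21.8 CPM in controls. Every heat library lay above every control. By edgeR, 100 of 100 members were higher at 1 h in total mRNA, beside 10.5% of all genes, and nothing is read from that count since this contrast chose the set.

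In TRAP mRNA at 1 h, which the choice did not use, ATSDI1 had 111, 105 and 144 CPM in heat libraries and 17.4, 16.0 and 21.9 CPM in controls. The groups did not overlap, and the log2 fold was 2.59 ± 0.30 (SE, n = 3 each; edgeR quasi-likelihood test, adjusted p = 3.0e-06). AT5G26220 had 31.9, 32.3 and 52.6 CPM in heat libraries and 6.55, 6.69 and 6.60 CPM in controls, a log2 fold of 2.43 ± 0.33. LSU3 reached 80.6, 69.7 and 109 CPM in heat libraries, against 18.6, 17.6 and 19.8 CPM in controls. All 9 sulfur members were higher in TRAP at 1 h by edgeR, as were 94 of the 99 members tested.

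**Figure D1:**
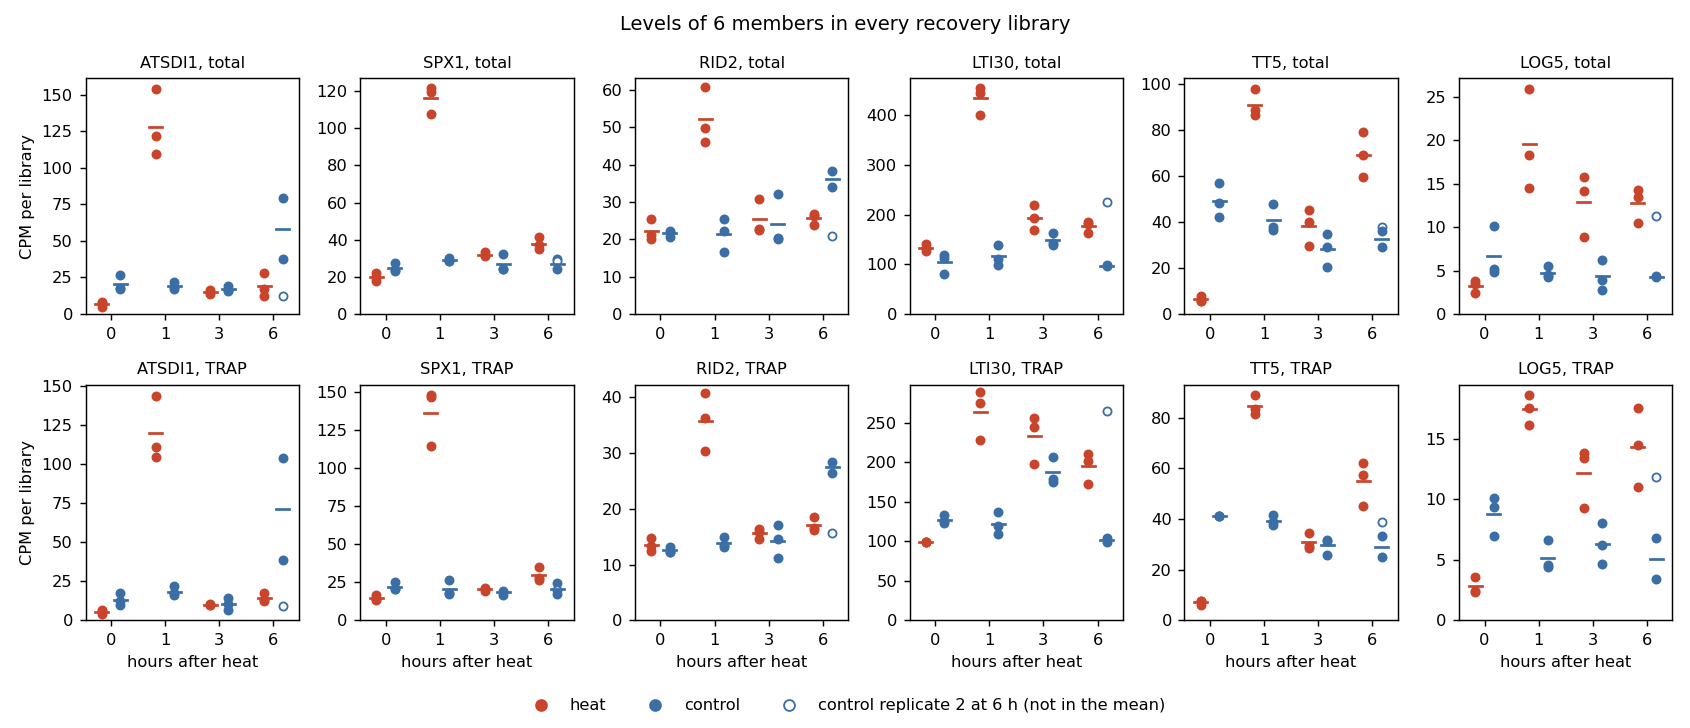
Levels in CPM of 6 members (ATSDI1, SPX1, RID2, LTI30, TT5, LOG5) in every recovery library, total mRNA above and TRAP below, at 0, 1, 3 and 6 h after heat, with heat to the left of control at each time. Points are libraries, bars are means of the group, and the open point is control replicate 2 at 6 h, which is not in the mean. At 1 h the heat libraries lie above the controls in all 12 panels.

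Across the set, 94 of 99 members tested were higher in TRAP mRNA at 1 h and 0 were lower (edgeR, adjusted p below 0.05), beside 12.8% higher among all 20847 genes tested. The median log2 fold of members was 1.38, and that of all genes 0.0025. Total and TRAP libraries with the same group and number deviated together from their group means, with a median correlation of 0.181 over 21 pairs, against -0.111 for other numbers. The TRAP libraries may therefore come from the same seedlings as the total mRNA that chose the set, and the TRAP count is not independent of it. A class with every member higher is close to the share of the whole set. Such class counts are therefore not read as a trait of the class. The 5 members not called were UGT74E2, AT5G66780, LTI78, AT5G65300 and AT4G38092, and AT1G09475 was too low in TRAP to be tested. Markers of leaf tissue moved with the 1 h comparison: all 4 were lower in TRAP, and their summed level was 26642 to 28657 CPM in heat libraries and 41710 to 42594 CPM in controls. Of 8 tested root markers 0 were higher and 1 lower. Their part in the result was not tested, and in whole seedlings fewer cells of a type and less RNA per cell cannot be told apart.

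SPX1, a sensor of phosphate status, did not overlap between the groups in TRAP. It had 147, 114 and 148 CPM in heat libraries, against 17.8, 17.3 and 26.4 CPM in controls, with a log2 fold of 2.63 ± 0.17 (SE, n = 3 each; edgeR, adjusted p = 6.8e-12). SRG3, which overlaps the member AT3G02030 on the genome, had a log2 fold of 2.30 ± 0.20. NIR1, the nitrite reductase of nitrogen assimilation, had 530, 527 and 560 CPM in heat libraries and 172, 187 and 163 CPM in controls. All 5 members of the phosphate and nitrogen class were higher. The largest folds of all were those of AT3G61920, 3.5 ± 0.41, and AT4G05170, 3.40 ± 0.51, both at low levels in the controls.

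Among the nucleolar members, RID2, a methyltransferase needed for processing of ribosomal RNA, had 30.3, 40.7 and 36.2 CPM in TRAP heat libraries, against 13.6, 13.2 and 14.9 CPM in controls. PUM24, a pumilio protein of the nucleolus, had 27.5, 25.1 and 34.8 CPM in heat libraries and 9.53, 8.73 and 6.98 CPM in controls. RRP4, a subunit of the RNA exosome, had a log2 fold of 1.66 ± 0.20. All 16 nucleolar members were called higher, and their median log2 fold was 1.57. The class includes the snoRNA genes AT1G74453 and AT1G74456, which are not translated and were low in TRAP. At 1 h they averaged 4.69 and 3.97 CPM in TRAP heat libraries, against 1.57 and 1.05 CPM in controls. A wider list of 21 ribosome biogenesis genes shares PUM24 and RID2 with the set. In TRAP at 1 h 19 of its genes were higher and 0 lower, beside 12.8% and 14.2% among all genes. The median log2 fold of the list was 0.99. Among its other genes, BRX1-2 had a log2 fold of 1.61 ± 0.13 and NHP2 of 1.37 ± 0.12.

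The 6 members for organelle gene expression, among them pentatricopeptide repeat proteins such as emb1796 that act on organelle transcripts, were all higher as well. A list of 31 sulfate assimilation and low-sulfur genes was made after the members were seen and holds 9 of them. Of its 30 tested genes 17 were higher and 1 was lower in TRAP at 1 h, beside 12.8% and 14.2% among all genes. All 9 members are among the 17, so this count is not independent of the choice. LSU1 and SDI2, which are no members, had log2 folds of 1.25 ± 0.31 and 1.02 ± 0.15, and the transporter SULTR1;2 had -0.23 ± 0.18 and was not called. Of 12 tested phosphate starvation genes, also listed after the members were seen, 7 were higher and 0 lower, beside 12.8% higher among all genes, and 2 of the 7, SPX1 and SRG3, are members.

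In the late embryogenesis and cold class, LTI30, a dehydrin, had 276, 229 and 289 CPM in TRAP heat libraries at 1 h, against 120, 109 and 137 CPM in controls, a log2 fold of 0.99 ± 0.12. LTI78, a desiccation-responsive protein, had 99.7, 93.5 and 129 CPM in heat libraries and 69.5, 54.4 and 60.9 CPM in controls, with a log2 fold of 0.67 ± 0.31 that was not called (adjusted p = 0.12). In this class 4 of 6 members were called. Of 18 tested cold and CBF genes, among them LTI78, 5 were higher in TRAP at 1 h and 1, TEM2, was lower, beside 12.8% and 14.2% among all genes. UGT74E2, a glycosyltransferase of the auxin indole-3-butyric acid, had 9.15, 7.06 and 6.74 CPM in TRAP heat libraries and 2.14, 2.99 and 8.68 CPM in controls, so the groups overlapped. In total mRNA it had 18.2, 28.4 and 17.8 CPM in heat libraries, against 3.85, 2.24 and 2.81 CPM in controls.

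**Figure D2:**
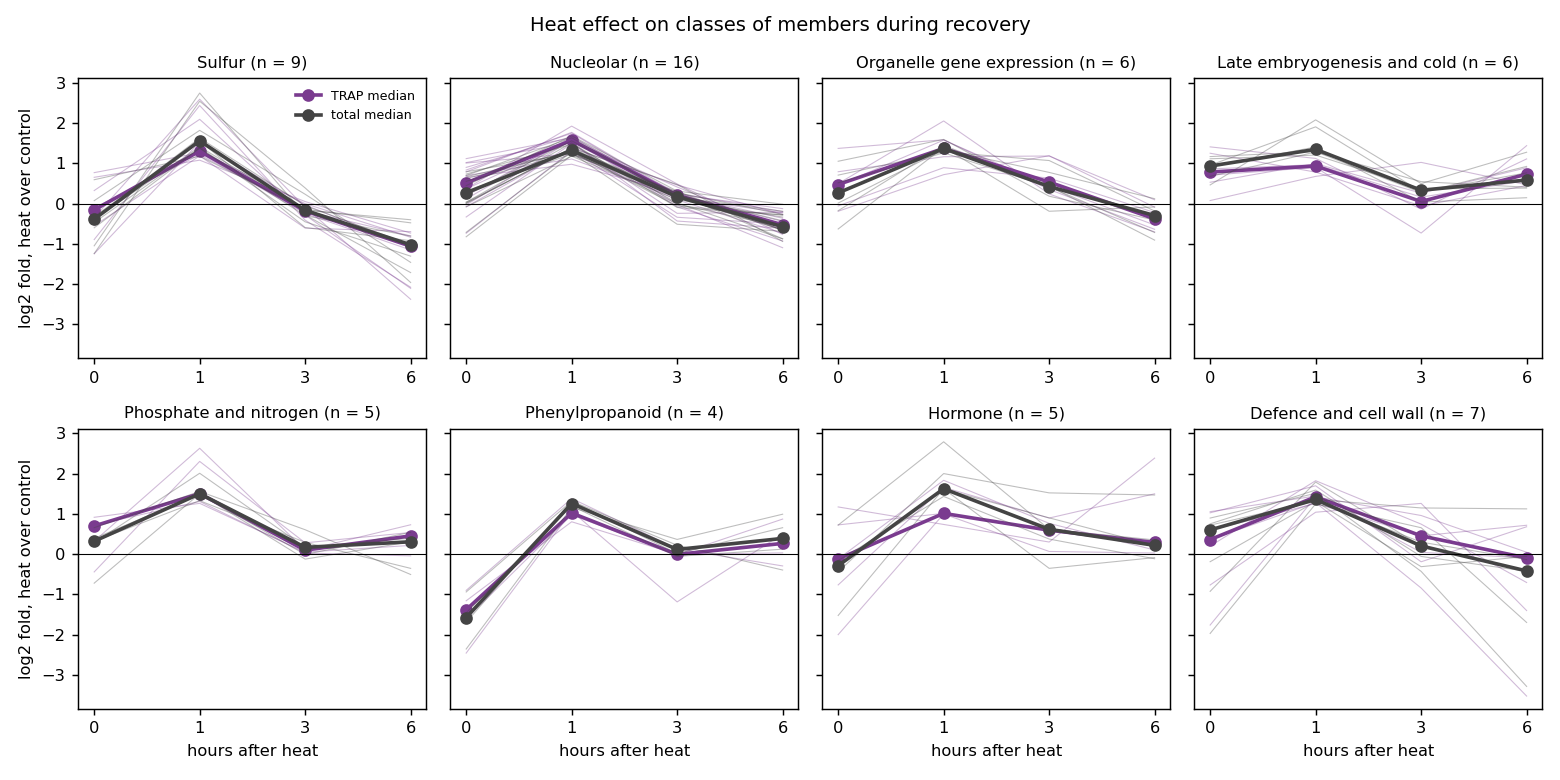
Log2 fold of heat over control by edgeR at 0, 1, 3 and 6 h after heat, for the 8 classes of members, with thin lines for single members and thick lines with points for class medians in TRAP and total mRNA. The class medians are highest at 1 h in both kinds of RNA, and the phenylpropanoid class starts lowest, at -1.38 in TRAP.

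At the end of heat, TRAP mRNA held 32 members that were higher and 18 that were lower than controls, beside 25.8% higher and 25.2% lower among all genes tested (edgeR). The 49 others were not called. Summed root markers were at 21.6 to 25.7 CPM in TRAP heat libraries at 0 h and 48.1 to 54.5 CPM in controls, and leaf markers at 27431 to 30069 CPM in heat libraries and 39599 to 40978 CPM in controls. By edgeR 3 of 8 root markers were lower and 1 higher, and 2 of 4 leaf markers were higher and 0 lower. Their part in the counts was not tested. The phenylpropanoid class had the lowest median of the 8 classes, -1.38. TT5, the chalcone isomerase of flavonoid synthesis, had 7.84, 6.23 and 7.79 CPM in heat libraries at 0 h, against 41.1, 41.2 and 41.0 CPM in controls, a log2 fold of -1.60 ± 0.15. By 1 h it had 81.6, 83.2 and 88.8 CPM in heat libraries and 41.6, 39.0 and 37.5 CPM in controls. 4CL3, a coumarate ligase of the same route, had log2 folds of -2.46 ± 0.39 at 0 h and 1.07 ± 0.25 at 1 h. All 4 members of the class were lower at 0 h and all 4 higher at 1 h. A wider flavonoid list of 10 genes, which holds TT5, was more mixed. At 0 h 7 were lower and 2 higher, beside 25.2% and 25.8% among all genes. At 1 h 3 were higher and 0 lower, beside 12.8% and 14.2%. The 3 were TT5, PAL1 and FLS1, while the chalcone synthase gene CHS had a log2 fold of 0.36 at 1 h and was not called. The regulators MYB12 and MYB111 were the 2 that were higher at 0 h, with log2 folds of 0.89 ± 0.23 and 2.61 ± 0.34. RGL1, a DELLA repressor of gibberellin responses, had -2.0 ± 0.34 at 0 h and 1.0 ± 0.22 at 1 h.

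Other members were already high at 0 h on the TMM scale. LEA14, a late embryogenesis abundant protein, had log2 folds of 1.25 ± 0.16 at 0 h and 0.78 ± 0.16 at 1 h in TRAP. AT3G10530, a WD40 repeat protein placed among the nucleolar members, had 1.11 ± 0.15 and 1.63 ± 0.15. The change of the heat effect between the times was tested directly. It was higher at 1 h than at 0 h for 64 of 99 members and lower for 1, AT3G02555, beside 18.9% higher and 21.4% lower among all genes. By their calls at each time, 18 members were lower at 0 h and higher at 1 h. Another 45 were not called at 0 h and higher at 1 h, and 31 were higher at both. The share of all genes with each pair of calls was not counted. Total mRNA at 0 h and 1 h chose the set, so neither these counts nor the test of the change is independent of the choice.

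**Figure D3:**
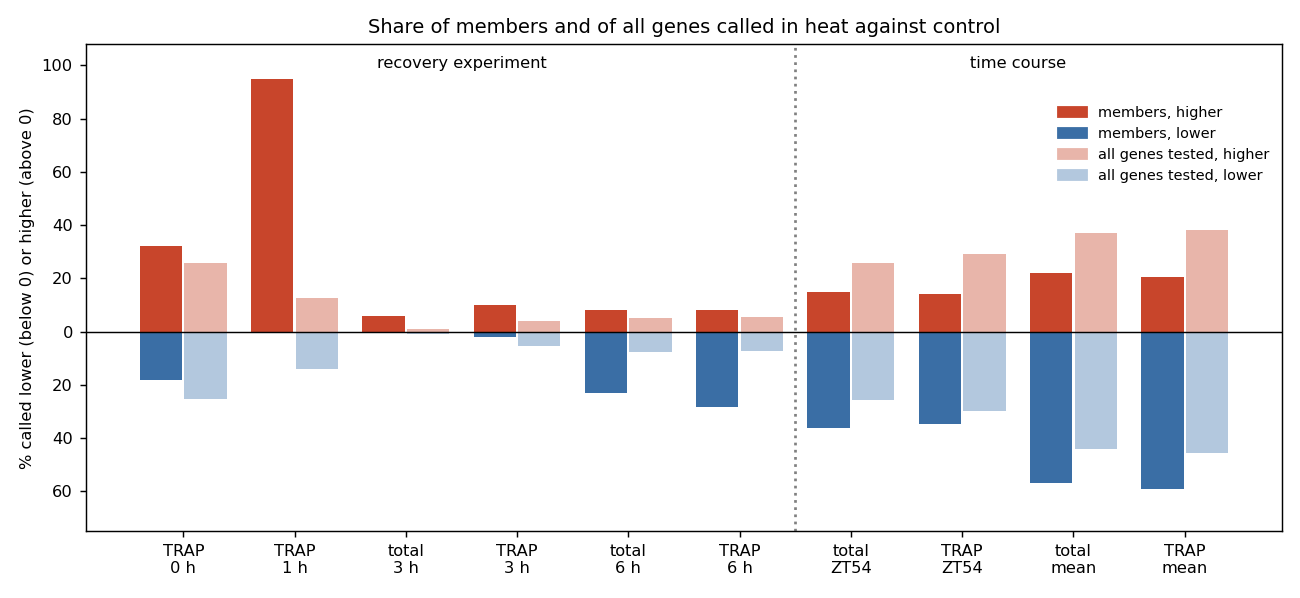
Percent of members (dark) and of all genes tested (pale) called higher, above 0, or lower, below 0, in heat against control by edgeR, for TRAP and total mRNA of the recovery experiment and for ZT54 and the mean over 8 times of the time course. Members called higher in TRAP at 1 h come to 94.9%, beside 12.8% of all genes, and in the time course the members' lower share exceeds the higher one. The limit on the ratio at 0 h that chose the set favours few higher calls at the end of heat.

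By 3 h most of the difference had gone. In TRAP the heat effect was lower at 3 h than at 1 h for 67 of 99 members and higher for 0, beside 7.09% lower among all genes. Without replicate 3 the count was 36. The members were chosen by a high ratio at 1 h in total mRNA, so the count is not independent of the choice. A lower effect at a later time is favoured by such a choice. ATSDI1 had 9.65, 9.81 and 10.6 CPM in TRAP heat libraries at 3 h, against 6.89, 10.7 and 14.4 CPM in controls. In total mRNA 6 members were higher and 0 lower, beside 0.939% higher and 1.06% lower. In TRAP 10 were higher and 2 lower, beside 3.81% and 5.47%. With a single replicate number left out, 5 to 6 were higher in TRAP, and without replicate 2 only 1 was higher in total mRNA. A fit of only the 3 h groups called 1 member higher in TRAP and 0 lower. The 2 that were lower were 4CL3 and APS3.

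The members still higher in total mRNA were LOG5, PROPEP5, AT5G48470, AT1G16850, AT1G30700 and NAC003. LOG5, an enzyme that releases active cytokinins, had 14.1, 15.8 and 8.89 CPM in heat libraries, against 3.94, 2.76 and 6.25 CPM in controls, a log2 fold of 1.52 ± 0.31 (SE, n = 3 each; edgeR, adjusted p = 0.0020). PROPEP5, the precursor of a danger peptide, had 62.4, 75.8 and 60.7 CPM in heat libraries and 29.6, 27.6 and 27.7 CPM in controls. AT5G48470, placed with organelle gene expression, had 38.1, 38.5 and 36.9 CPM in TRAP heat libraries and 18.3, 12.2 and 17.5 CPM in controls, with no overlap. LTI78, not called in TRAP at 1 h, had 230, 197 and 174 CPM in heat libraries at 3 h and 43.8, 144 and 101 CPM in controls, the lowest of which is control replicate 1. Without that library its log2 fold was 0.66 and it was not called. With control replicate 2 at 6 h in the fit, 2 members were higher in total mRNA at 3 h. No member, and no gene of 21725 tested, differed between TRAP and total mRNA in its heat effect at 3 h by edgeR at an adjusted p below 0.05. At an unadjusted p below 0.05 the counts were 12 members and 2243 genes, and DESeq2 called 2 genes. With no filter on low counts, 404 of 30943 genes were called, of which 0 were members. The test treats total and TRAP libraries as independent, although those with the same number may come from the same seedlings, so it does not show that the kinds of RNA responded alike.

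At 6 h, 28 members were lower and 8 higher in TRAP, beside 7.2% lower and 5.56% higher among all genes, and in total mRNA 23 were lower and 8 higher, beside 7.48% and 4.98%. These counts rest on the 2 controls that remained. With control replicate 2 kept, 9 members were lower and 5 higher in TRAP, and 8 lower and 5 higher in total mRNA. Leaving out replicate 1 or 3 as well leaves a single control library at 6 h, so counts from those fits are not given. The controls of ATSDI1 were spread widely at this time. It had 17.4, 12.5 and 12.9 CPM in TRAP heat libraries, against 104 and 38.8 CPM in the 2 controls used and 9.23 CPM in control replicate 2, which lay below every heat library. In total mRNA the heat libraries had 28.0, 17 and 12.2 CPM and the controls 79.3, 12.6 and 37.3 CPM. At the same ZT60 of the time course, controls had 27.9, 32.6 and 24.5 CPM in total mRNA.

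Of the sulfur class 8 of 9 were called lower in TRAP at 6 h, and 0 with control replicate 2 kept. The log2 fold of ATSDI1 was -2.38 ± 0.33 without that library and -1.89 with it, and it was then not called. AT1G30700, a berberine bridge enzyme-like protein, was lower either way: it had 6.19, 4.81 and 6.99 CPM in TRAP heat libraries, against 14.4, 13.8 and 16.4 CPM in the 3 controls. AT5G03350, a lectin, had log2 folds of -3.52 ± 0.48 without and -3.09 with the library. Among the members higher at 6 h, TT5 kept its call in both kinds of RNA either way, with 59.5, 69.1 and 78.9 CPM in total mRNA of heat libraries and 29.1, 37.7 and 36.0 CPM in controls. LOG5, PROPEP5 and LTI30 were higher in both kinds of RNA, and lost the call with control replicate 2 kept.

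**Figure D4:**
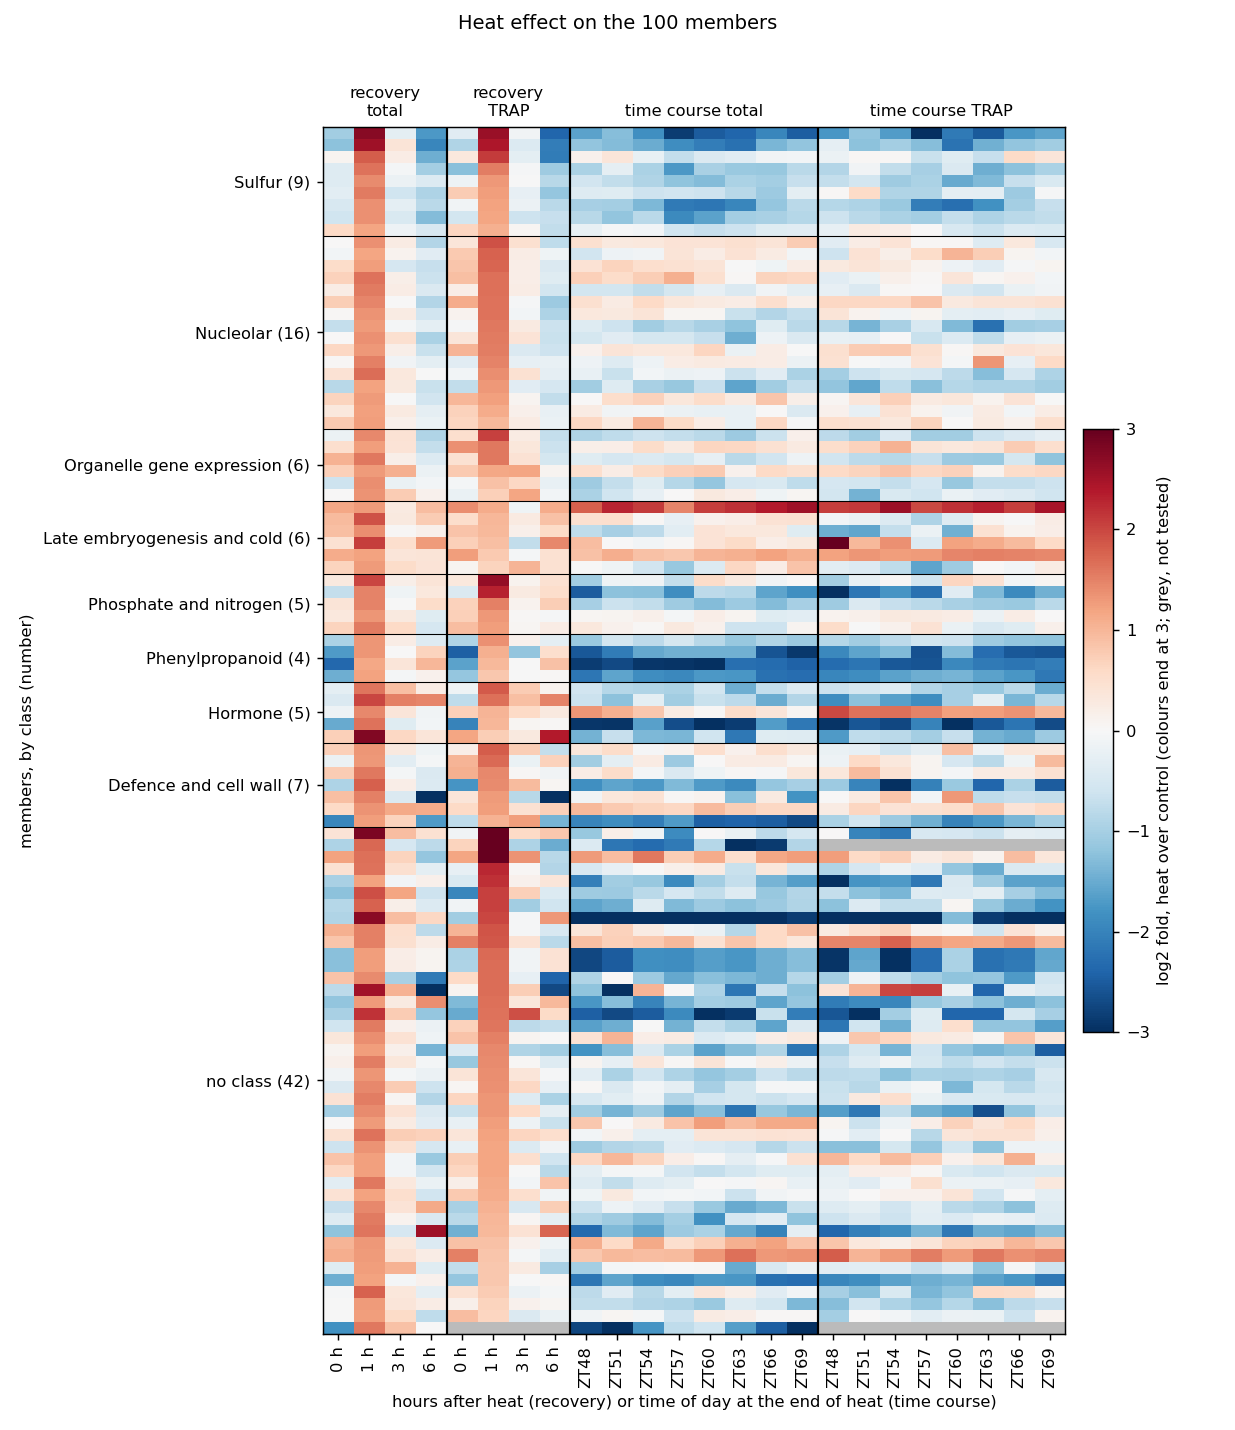
Log2 fold of heat over control by edgeR for the 100 members (rows, by class, with the number in each) in the recovery experiment (0, 1, 3 and 6 h, total mRNA and TRAP) and at the 8 times of day of the time course. Colours end at 3 in either direction and grey marks members not tested. The 1 h columns are red throughout, while most rows of the time course are blue.

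The time course gave the effect of heat at its end, in a different set of plants at each time, and holds no recovery time. At ZT54, the time at which the heat of the recovery experiment ended, total mRNA had 15 members higher and 36 lower, beside 25.9% higher and 25.7% lower among 21234 genes. TRAP had 14 of 98 higher and 34 lower, beside 29.0% and 29.7%. The rule kept only genes with a ratio below 1.5 at 0 h, which favours few higher calls at the end of heat. The low share of higher calls in the time course is therefore not read as a trait of the set. In the recovery experiment at 0 h, TRAP had 32 higher and 18 lower. All 14 members higher in TRAP at ZT54 of the time course were also higher at 0 h of recovery. A further 14 were lower in both. The share of all genes with such pairs of calls was not counted. LTI30 and NIR1 were called higher at 0 h of recovery and lower at ZT54 of the time course. That difference in direction holds on the TMM scale alone. In CPM, LTI30 averaged 99.1 in heat and 127.5 in control libraries at 0 h of recovery, and 38.7 in heat and 116.9 in control libraries at ZT54 of the time course. NIR1 averaged 169.2 CPM in heat and 192.6 CPM in control libraries at 0 h, and 67.3 CPM in heat and 245.8 CPM in control libraries at ZT54. The median log2 CPM ratio over genes was -0.767 at 0 h of recovery and -1.04 at ZT54 in TRAP. The heat reference list summed to 34604 to 35907 CPM in total mRNA of heat libraries at ZT54 of the time course, above the recovery libraries at 0 h. In TRAP at ZT54, root markers summed to 15.3 to 17.4 CPM in heat libraries and 43.6 to 48.05 CPM in controls, and leaf markers to 22002 to 26493 CPM in heat libraries and 37527 to 42261 CPM in controls. The part of these lists in the difference was not tested.

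Over the 8 times together, 22 members were higher and 57 lower in total mRNA, beside 36.9% and 43.9%, and in TRAP 20 were higher and 58 lower, beside 38.1% and 45.5%. All 9 sulfur members were lower in total mRNA. ATSDI1 had a mean log2 fold of -2.11 ± 0.09 and TT5 of -2.70 ± 0.08 (SE; edgeR). AT5G20790 had the lowest, -4.04 ± 0.20, with at most 1.05 CPM in the heat libraries of ZT69 and 8.81 to 13.1 CPM in its controls. The highest was AT3G02480, a late embryogenesis abundant protein, at 2.1 ± 0.09. Taken one by one from ZT48 onward, the 8 times gave in total mRNA 18, 17, 15, 9, 12, 8, 11 and 10 members higher, beside 29.6%, 28.2%, 25.9%, 24.8%, 23.6%, 21.9%, 22.4% and 21.5% of all genes. It had 43, 41, 36, 44, 34, 38, 36 and 33 lower, beside 28.2%, 28.2%, 25.7%, 25.5%, 24.1%, 22.2%, 21.6% and 21.3%. The members' lower count was above their higher count at all 8 times. The limit on the ratio at 0 h favours such a result, so these counts and the mean effect are not independent of the choice. There were 20 members lower and 3 higher (AT3G02480, AT3G02555 and LEA14) at every one of the 8 times in total mRNA. The share of all genes called at all 8 times was not counted, so nothing is read from these counts.

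**Figure D5:**
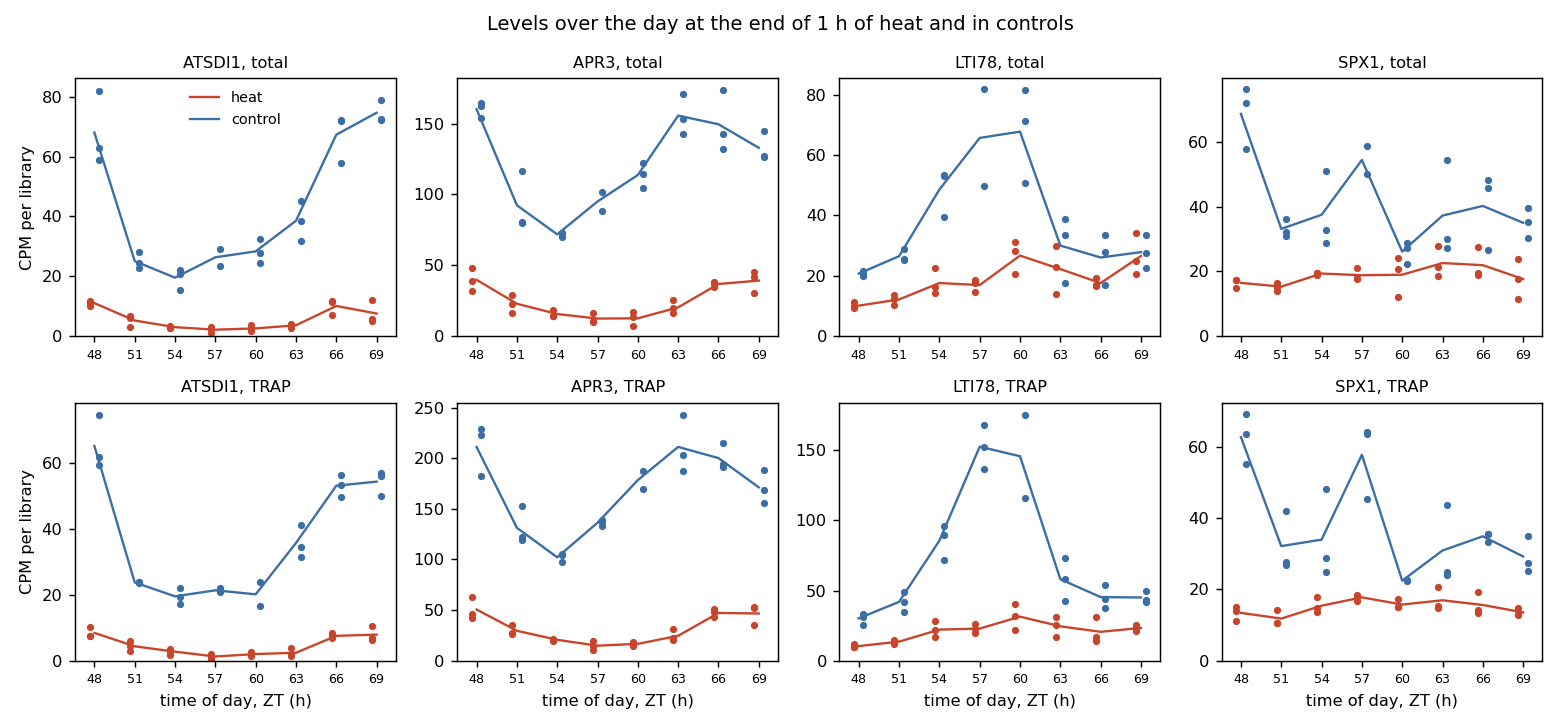
Levels in CPM of ATSDI1, APR3, LTI78 and SPX1 at 8 times of day in heat (collected at the end of 1 h at 37 °C) and control libraries of the time course, total mRNA above and TRAP below. Points are libraries and lines join group means. Controls of ATSDI1 are lowest at ZT54 and highest at ZT69 in total mRNA, and the heat libraries stay below them at all 8 times.

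The control level of 62 members varied over the day in total mRNA by edgeR, beside 46.3% of all genes. Their highest control mean fell at ZT63 for 17, at ZT66 for 15 and at ZT69 for 11. It fell at ZT48 for 7, at ZT60 for 7, at ZT57 for 4, at ZT54 for 1 and at ZT51 for 0. The share of all genes with a peak at each time was not counted. A high ratio at 1 h of recovery favours genes with low controls at that time of day, so the peak times are not independent of the choice. ATSDI1 had 20.9, 15.6 and 22.1 CPM in controls at ZT54 and 72.4, 72.7 and 79.0 CPM at ZT69. The size of the heat effect varied with time of day for 9 members in total mRNA and 15 in TRAP, beside 3.61% and 7.04%. APR3 had log2 folds of -1.0 at ZT48, -2.16 at ZT60 and -0.82 at ZT69 in total mRNA (edgeR, adjusted p = 0.00033). LTI78 had -1.13 at ZT57 and 0.85 at ZT69 (edgeR, adjusted p = 0.0072), and its controls were highest at ZT57 and ZT60. SPX1 had -1.05 at ZT48 and 0.55 at ZT60. With a single replicate number left out, the heat effect varied for 3 to 6 members in total mRNA and 2 to 10 in TRAP, and the control level for 40 to 52. APR3 and LTI78 each lost the call in total mRNA without replicate 1, at adjusted p of 0.12 and 0.44 (edgeR).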

How the data were processed

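The authors deposited raw counts per gene, 48 libraries for recovery and 100 for the time course, and per the submitters' processing notes used cutadapt, FastQC and HISAT2 2.2.0 with TAIR10. Which tool and annotation counted the reads, and whether strand was used, is not stated. No column was left without a sample. Members and gene lists were chosen with earlier results of these data known, and the classes and the sulfate and phosphate lists after the members were seen.

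Counts were fitted in R 4.3.3 with edgeR 4.0.16 (filterByExpr with a minimum count of 10 and a minimum total of 15, TMM scaling, robust quasi-likelihood) with each experiment and RNA type fitted as a whole. Benjamini-Hochberg adjustment ran over all genes tested, and calls were made at an adjusted p below 0.05. The fits were tested on simulated counts: for TRAP at 1 h, 86 of 100 genes changed 2-fold and 100 of 100 changed 4-fold were recovered among 20847 genes. Tests of differences recovered fewer. For the TRAP effect at 1 h against 0 h the counts were 63 of 100 changed 2-fold and 97 of 100 changed 4-fold. For variation with time of day in total mRNA they were 52 and 94. Replicate numbers did not pair heat with control libraries, while total and TRAP libraries of the same group and number deviated together, and the comparison between these kinds of RNA was fitted over both without that pairing.

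Genes were named by a rule: the 20 highest ratios, the 10 highest and 5 lowest TRAP folds at 1 h, the 5 highest and 5 lowest at 3 h, 6 h and over the day, the 5 smallest p of each F test, the edge of the set, list members and families of 3 or more. AT1G62170, AT1G09475 and AT1G06002 were named after their values were seen. The alternatives tried were no filter on low counts, a replicate block, RLE scaling, DESeq2 1.42.0, only the groups compared, organelle genes left out, each replicate left out, control replicate 2 at 6 h kept, other membership settings, and 3 chosen after seeing the data.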

Additional observations from a re-analysis of the deposited data

Results flagged for a closer look

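By the test of that difference in edgeR, the heat effect in TRAP mRNA differed between 1 h and 0 h for 65 members. Among all genes 18.9% were higher and 21.4% lower at 1 h than at 0 h. The effect differed between 3 h and 1 h for 67 members, beside 7.24% higher and 7.09% lower among all genes. Total mRNA at 0 h and 1 h chose the set, so neither count is independent of the choice. In the time course the heat effect varied with time of day for 9 members in total mRNA, beside 3.61% of all genes. In TRAP mRNA it varied for 15 members, beside 7.04%.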

How the results depend on the processing

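Of 215 alternatives of the counts of members and of membership, apart from those leaving out a replicate, 200 lay within 1.5 times the value reported. With control replicate 2 at 6 h kept, 5 members were higher and 9 lower in TRAP at 6 h, 5 higher and 8 lower in total mRNA at 6 h, 2 higher in total mRNA at 3 h and 0 lower in TRAP at 3 h. With only the groups compared, 1 was higher and 0 lower in TRAP at 3 h, and 2 had a lower TRAP effect at 1 h than at 0 h. Without TRAP control replicate 1 at 3 h, a choice made after seeing the data, 1 was lower in TRAP at 3 h, 13 were higher and 34 lower in TRAP at 6 h, 72 had a lower effect at 3 h than at 1 h and 2 had a lower effect at 1 h than at 0 h. With no filter on low counts that last count was 0, and the effect varied with time of day for 18 members in total mRNA and 24 in TRAP. Without total mRNA control replicate 2 at ZT54 of the time course, the control level of 57 members varied over the day. The cause was not tested.

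Leaving out each replicate in turn gave these ranges. Members higher in TRAP were 82 to 92 at 1 h, 23 to 30 at 0 h and 5 to 6 at 3 h. Members lower in TRAP were 13 to 17 at 0 h, 0 to 1 at 3 h and 14 to 24 at 6 h. In total mRNA 1 to 8 were higher at 3 h, and 7 to 8 were higher and 9 to 25 lower at 6 h. The TRAP effect was higher at 1 h than 0 h for 54 to 62 and lower for 0 to 1, and lower at 3 h than 1 h for 36 to 70. The effect varied with time of day for 3 to 6 members in total mRNA and 2 to 10 in TRAP, and the control level for 40 to 52. At ZT54 of the time course 10 to 13 were higher and 28 to 33 lower in total mRNA, and 12 to 15 higher and 28 to 33 lower in TRAP. For the mean effect 19 to 23 were higher and 55 to 56 lower in total mRNA, and 19 to 20 higher and 52 to 58 lower in TRAP. Membership shared 67 to 76 of the 100 genes.

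The replicate numbers did not pair heat with control: heat and control libraries with the same number had a median correlation of deviations of -0.032 in total mRNA and -0.017 in TRAP of the recovery experiment. With the replicate block 93 members were higher in TRAP at 1 h, 30 higher at 0 h and 23 lower at 6 h. Membership under other scalings shared 71 genes with TMM and 73 with 5 CPM added. Of 5302 alternatives of named genes, 4856 kept direction and call, 446 lost the call and 0 reversed.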
